A study of Rattus norvegicus with 10 samples.

Results

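The immediate early genes of the serum response described here are Egr1, Egr2, Fos, Junb, Jun, Ier2, Zfp36, Dusp6, Dusp1 and Phlda1, 10 of the 13336 genes named on the array. Each was matched by its platform symbol and read from its brightest probe, and each had 1 probe. The 10 genes were chosen with earlier results of these data known, so counts set beside the whole array are descriptions. They were compared between skull bone-derived cells (S-Bdc), grown out of the calvaria, and limb bone-derived cells (L-Bdc), grown out of the ulna, of the same 5 male CD rats. Cells released by the third collagenase digest of bone cleared of soft tissue and marrow were expanded in medium with newborn calf serum, with no other treatment and no genetic change in either group, and total RNA was taken at passage 3 and 95% confluence. Expression was read on 10 Illumina RatRef BeadChip arrays, 1 for each culture, so the replicate is the rat (n = 5 pairs). The median raw signal of an array was 40.6 to 48.1 units in S-Bdc, against 42.9 to 47.1 units in L-Bdc. The time between the last change of medium and harvest, and the slide that held each array, are not given in the sources used here.

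Immediate early genes are switched on within minutes when serum or a growth factor reaches a resting cell, and their transcription needs no new protein synthesis. Growth factor receptors signal through Ras and the kinase ERK to the ternary complex factors, which sit with serum response factor (SRF) on a DNA motif called the CArG box. The first products are transcription factors of the EGR and AP-1 families, and they are followed or accompanied by proteins that end the response, such as phosphatases that inactivate MAP kinases and proteins that speed the decay of unstable mRNAs. In bone, AP-1 proteins are known regulators of both osteoblasts and osteoclasts.

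Promoter windows of 250 bases before and 50 bases after the start of the gene were listed by RefSeq (assembly GRCr8) for 8 of the 10 genes, Fos and Jun being the others. The CArG box, a pair of C, a run of A or T and a pair of G, occurred in 3 of the 8 windows, those of Egr1, Egr2 and Zfp36, whereas 1.64% of 33469 rat promoter windows of the same length held 1. The 3 windows are shown because SRF, the factor that binds this box, is named for its part in the serum response. Capitals mark the CArG boxes, and each sequence runs 5′ to 3′ on the strand of its gene.
Egr1 (chr18:26736828-26737127, plus strand): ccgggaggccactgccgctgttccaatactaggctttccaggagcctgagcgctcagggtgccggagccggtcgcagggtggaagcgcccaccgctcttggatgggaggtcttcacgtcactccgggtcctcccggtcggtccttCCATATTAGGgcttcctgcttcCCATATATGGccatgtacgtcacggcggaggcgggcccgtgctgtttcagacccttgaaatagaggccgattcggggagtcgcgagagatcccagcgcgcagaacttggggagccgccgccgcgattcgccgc
Egr2 (chr20:21054392-21054691, minus strand): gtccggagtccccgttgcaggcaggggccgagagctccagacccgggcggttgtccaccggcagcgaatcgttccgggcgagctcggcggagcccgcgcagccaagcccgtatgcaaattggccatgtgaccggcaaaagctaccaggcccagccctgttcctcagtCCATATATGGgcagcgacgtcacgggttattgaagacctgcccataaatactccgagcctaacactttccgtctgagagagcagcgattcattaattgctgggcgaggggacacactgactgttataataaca
Zfp36 (chr1:92799059-92799358, minus strand): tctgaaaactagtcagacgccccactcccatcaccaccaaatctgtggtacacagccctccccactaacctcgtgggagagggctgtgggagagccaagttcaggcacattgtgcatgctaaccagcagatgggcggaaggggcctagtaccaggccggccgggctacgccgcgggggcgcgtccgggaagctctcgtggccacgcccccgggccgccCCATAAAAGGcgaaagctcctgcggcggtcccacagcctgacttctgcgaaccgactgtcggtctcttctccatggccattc
The Egr1 window held 2 CArG boxes, whose first bases lay 105 and 83 bases before the start. In Egr2 the box began 83 bases before the start used by this window, which lies inside the annotated span of the gene, and the letters were those of the nearer Egr1 box. The box of Zfp36 began 32 bases before its start.

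A second motif, the cAMP response element (TGACGTCA, searched on both strands), is bound by CREB and related factors. It occurred in the windows of Ier2 and Dusp1, 2 of the 8, against 1.83% of all windows. Stretches of 100 bases around it are shown, with the element in capitals.
Ier2 (chr19:40399261-40399360, plus strand): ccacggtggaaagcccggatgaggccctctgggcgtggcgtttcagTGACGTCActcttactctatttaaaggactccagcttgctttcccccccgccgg
Dusp1 (chr10:17184683-17184782, plus strand): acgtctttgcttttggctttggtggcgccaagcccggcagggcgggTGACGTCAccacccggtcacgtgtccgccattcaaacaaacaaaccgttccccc
The shorter form of this element, TGACG, which lies within the longer one, was found in 5 of the 8 windows and in 21.2% of all windows. A match of letters is a description of the sequence, and binding was not measured.

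In S-Bdc the mean signal of all 10 genes lay below that in L-Bdc. Of the 10, 7 passed an adjusted p of 0.05 (limma, paired by rat, Benjamini-Hochberg over all probes) as lower in S-Bdc, namely Egr1, Ier2, Dusp1, Dusp6, Fos, Zfp36 and Phlda1, and 0 passed as higher. At an unadjusted p of 0.05, 10 were lower and 0 higher, where 9.74% of all probes were lower and 9.04% higher. Over the whole array 2050 of 22517 probes, or 9.10%, passed, with 1053 (4.68%) lower and 997 (4.43%) higher in S-Bdc. The median difference of the 10 genes, S-Bdc minus L-Bdc, was -0.49 on the log2 scale, and that of all probes was -0.001. Among the 9092 probes above background on all 10 arrays, where 9 of the 10 genes fall, 10.5% passed as lower. The count of 7 became 5 without rat 3 and 5 without rat 4, and 4, 3 and 1 in other scalings of the signal, which are given under the dependence on the processing.

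Values below are normalised log2 signals, given for rats 1 to 5 in that order. An offset was added before the logarithm, so differences of dim probes are understated. Levels of different genes were not compared, since each probe has its own brightness. In cultures of mixed cells, fewer cells of a type and less RNA per cell cannot be told apart.

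**Figure D1:**
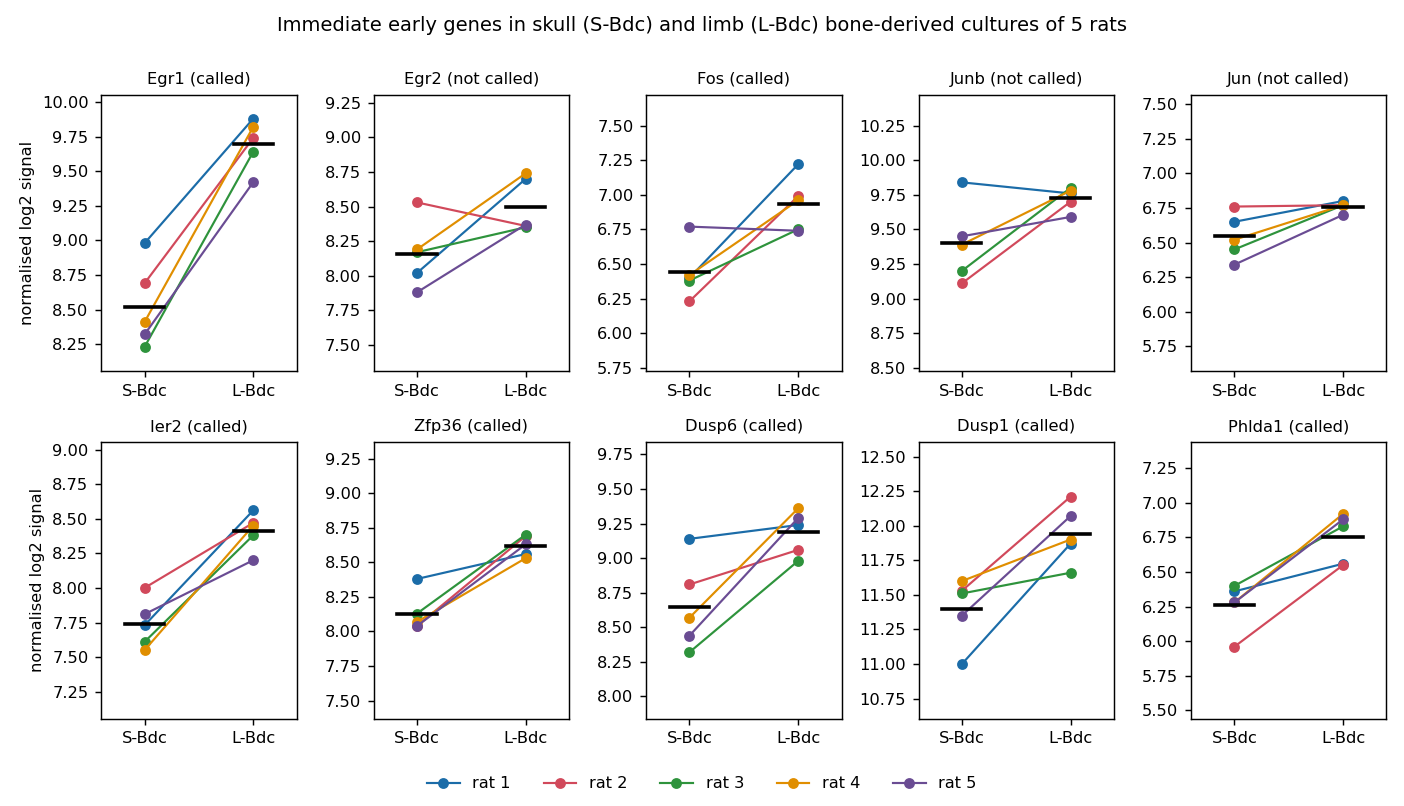
Normalised log2 signal of each of the 10 immediate early genes (vertical axis, each panel spanning the same range of 2 log2 units) in S-Bdc, left, and L-Bdc, right. Lines join the 2 cultures of a rat and black bars are means (n = 5). Egr1, Ier2, Zfp36, Dusp1 and Phlda1 show no overlap between sites, and the lines of Egr2 in rat 2, Fos in rat 5 and Junb in rat 1 run the other way.

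Egr1 encodes a zinc finger transcription factor of the early growth response family, and on the normalised log2 scale it had the largest difference of the 10 genes. Its signal was 8.98, 8.69, 8.23, 8.41 and 8.32 in S-Bdc, against 9.88, 9.74, 9.64, 9.82 and 9.42 in L-Bdc. The highest S-Bdc culture, that of rat 1, lay below the lowest L-Bdc culture, that of rat 5. Means were 8.52 ± 0.31 in S-Bdc and 9.70 ± 0.18 in L-Bdc (SD, n = 5 each), a 2.26-fold lower level in S-Bdc with a 95% interval of 2.0 to 2.56 (adjusted p = 3.93e-05, limma). All 5 pairs ran the same way, and of the 10 genes only Egr1 kept its call under all 14 alternative settings. In processed intensities, the ratio of the S-Bdc mean to the L-Bdc mean was 0.405 for Egr1. It was 0.332 for the dim probe of Phlda1 and 0.425 for that of Fos, so the order of these genes depends on the scale.

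Egr2, also called Krox20, encodes a relative of Egr1 best known from hindbrain and Schwann cell development. Its signal was 8.02, 8.53, 8.17, 8.19 and 7.88 in S-Bdc, against 8.70, 8.36, 8.35, 8.74 and 8.37 in L-Bdc. The groups overlapped, because the S-Bdc culture of rat 2 read above 3 of the 5 L-Bdc cultures. The difference of -0.34 ± 0.11 (SE, n = 5 pairs) did not pass the threshold (adjusted p = 0.0954), but without rat 2, the one pair that ran the other way, it was -0.47 and passed (adjusted p = 0.00936, limma). Leaving out rat 1, 3, 4 or 5 instead gave an adjusted p of 0.162 to 0.304 (limma), which did not pass. Within rats the Egr1 difference was more negative than the Egr2 difference in 5 of 5 rats, with a gap between -1.23 and -0.22. The mean of this gap was -0.83 ± 0.43 (SD, n = 5; exact permutation test by sign changes over rats, two-sided p = 0.0625). With 5 pairs this test cannot give a smaller p. This pair of genes was chosen for comparison after its values were seen.

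Fos, Junb and Jun encode subunits of the dimeric transcription factor AP-1, in which a Fos protein pairs with a Jun protein. Fos read 6.40, 6.23, 6.38, 6.42 and 6.77 in S-Bdc, against 7.22, 6.99, 6.75, 6.96 and 6.74 in L-Bdc. In 4 of 5 rats S-Bdc was lower, and in rat 5 the 2 cultures differed by 0.03. The difference of -0.49 ± 0.11 passed (SE, n = 5 pairs; adjusted p = 0.0201), but not without rat 2, rat 3 or rat 4, where the adjusted p was 0.072, 0.0589 and 0.0824. The Fos probe was dim, with processed intensities of 13.8 to 48.0 units in S-Bdc, against 45.9 to 88.0 units in L-Bdc, where background reached 8.51 units. With a smaller offset of 16 its difference was -0.74.

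Junb read 9.84, 9.11, 9.20, 9.39 and 9.45 in S-Bdc, against 9.76, 9.70, 9.80, 9.78 and 9.59 in L-Bdc. The S-Bdc culture of rat 1 was the highest of the 10, and the other 4 S-Bdc cultures lay below all L-Bdc cultures. The difference was -0.33 ± 0.10 (SE, n = 5 pairs; adjusted p = 0.0702), and without rat 1, the one pair that ran the other way, it was -0.43 and passed (adjusted p = 0.00563, limma). It did not pass when rat 2, 3, 4 or 5 was left out instead (adjusted p of 0.0839 to 0.256, limma). Jun read 6.65, 6.76, 6.45, 6.52 and 6.34 in S-Bdc, against 6.80, 6.77, 6.77, 6.77 and 6.70 in L-Bdc. Its L-Bdc values spanned only 0.10, whereas S-Bdc ranged more widely and reached the L-Bdc range in rat 2. The difference of -0.22 ± 0.06 lay just above the threshold (SE, n = 5 pairs; adjusted p = 0.0567) although S-Bdc was below L-Bdc in 5 of 5 pairs, and without rat 2 it was -0.27 and passed (adjusted p = 0.0259). With rat 1, 3, 4 or 5 left out instead, the Jun difference did not pass (adjusted p of 0.0623 to 0.205, limma).

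Ier2 encodes a nuclear protein of the immediate early response whose own mRNA is unstable. It read 7.73, 8.0, 7.61, 7.55 and 7.81 in S-Bdc, against 8.56, 8.47, 8.38, 8.45 and 8.20 in L-Bdc. The sites did not overlap, and the difference was largest in rat 4 and smallest in rat 5. The level in S-Bdc was 1.59-fold lower, with a 95% interval of 1.4 to 1.8 (log2 difference -0.67 ± 0.08, SE, n = 5 pairs; adjusted p = 7.90e-04).

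Zfp36 encodes tristetraprolin, which binds AU-rich elements of mRNAs and speeds their decay. It read 8.38, 8.04, 8.13, 8.07 and 8.04 in S-Bdc, against 8.56, 8.69, 8.70, 8.53 and 8.63 in L-Bdc. The sites did not overlap, and 4 of the 5 S-Bdc cultures lay within 0.10 of each other, with rat 1 above them. The difference was -0.49 ± 0.07 (SE, n = 5 pairs; adjusted p = 0.00209).

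Dusp6 and Dusp1 encode phosphatases that remove phosphate from MAP kinases, Dusp6 acting in the cytoplasm on ERK and Dusp1 in the nucleus mainly on p38 and JNK. Dusp6 read 9.14, 8.81, 8.32, 8.57 and 8.44 in S-Bdc, against 9.24, 9.06, 8.98, 9.36 and 9.29 in L-Bdc. All 5 pairs ran the same way, with small differences in rats 1 and 2 and larger ones in rats 3, 4 and 5, and the S-Bdc culture of rat 1 reached into the L-Bdc range. The difference of -0.53 ± 0.11 passed (SE, n = 5 pairs; adjusted p = 0.0133), but not without rat 3 or rat 4, where the adjusted p was 0.0682 and 0.0664.

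Dusp1 read 11.00, 11.53, 11.51, 11.60 and 11.35 in S-Bdc, against 11.87, 12.21, 11.66, 11.90 and 12.07 in L-Bdc. Here too the sites did not overlap, but the order of rats was unlike that of Dusp6, with the largest difference in rat 1 and the smallest in rat 3. The mean difference was -0.55 ± 0.10 (SE, n = 5 pairs; adjusted p = 0.0076).

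Phlda1 encodes a pleckstrin homology-like protein that is induced by growth factors. It read 6.36, 5.96, 6.40, 6.28 and 6.28 in S-Bdc, against 6.56, 6.55, 6.83, 6.92 and 6.88 in L-Bdc. Its probe rose above background on 4 of 5 S-Bdc arrays and on 5 of 5 L-Bdc arrays, rat 2 being the exception. The sites did not overlap, and the difference of -0.49 ± 0.07 passed (SE, n = 5 pairs; adjusted p = 0.00178). With an offset of 16 it was -0.80.

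Egr1, Ier2, Zfp36, Dusp1 and Phlda1 thus had all 5 S-Bdc cultures below all 5 L-Bdc cultures. Of probes above background on all 10 arrays, 7.25% showed the same order.

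**Figure D2:**
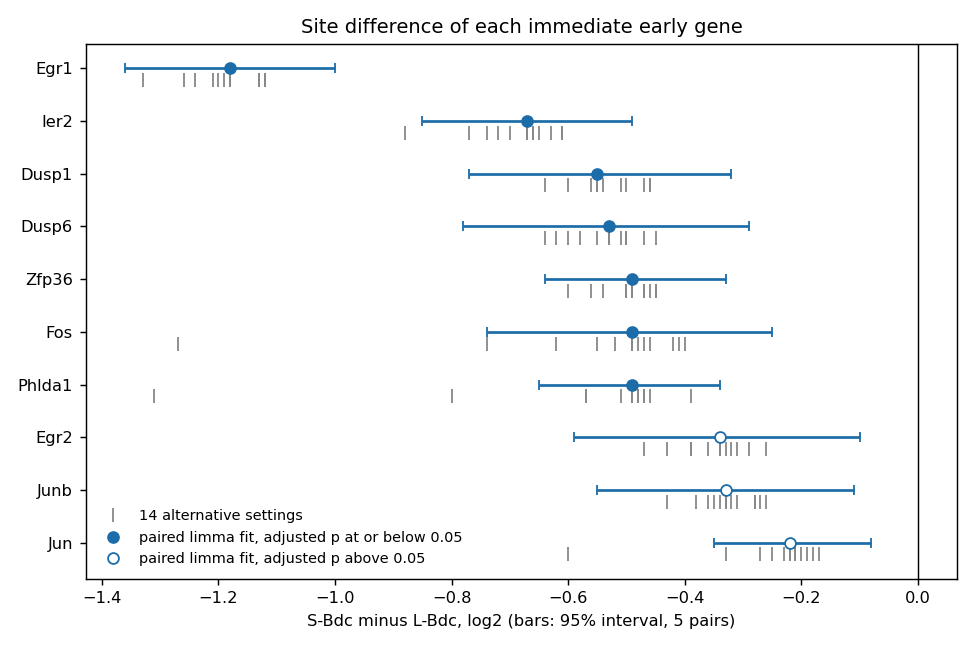
Log2 difference, S-Bdc minus L-Bdc, of each immediate early gene (horizontal axis) with its 95% interval over 5 pairs. Filled points passed an adjusted p of 0.05, and grey ticks give the same difference under 14 alternative settings. All points and ticks lie below 0, Egr1 is farthest from it, and the ticks of the dim probes Fos and Phlda1 reach to -1.27 and -1.31.

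The 10 genes were mostly lower in S-Bdc in every rat, with sizes that varied between rats from gene to gene. On the normalised log2 scale, where differences of dim probes are understated, Egr1 had the largest difference of the 10 in each rat. The median difference of the 10 genes was -0.44, -0.59, -0.50, -0.55 and -0.54 in rats 1 to 5, and 9, 9, 10, 10 and 9 of the 10 genes were lower in S-Bdc. In the same rats the median of all probes lay between -0.003 and 0.002. Rat 1 had small differences for Zfp36 (-0.18) and Dusp6 (-0.10) and a large one for Dusp1 (-0.88), whereas rat 3 had the smallest difference for Dusp1 (-0.15) and 1 of the 2 largest for Egr1 (-1.41). Within S-Bdc, rat 1 was the highest culture for 4 genes, Egr1, Junb, Zfp36 and Dusp6, and the lowest for Dusp1. Within L-Bdc, rat 5 was the lowest culture for 5 genes, Egr1, Fos, Junb, Jun and Ier2, and rat 1 the highest for 4, Egr1, Fos, Jun and Ier2.

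**Figure D3:**
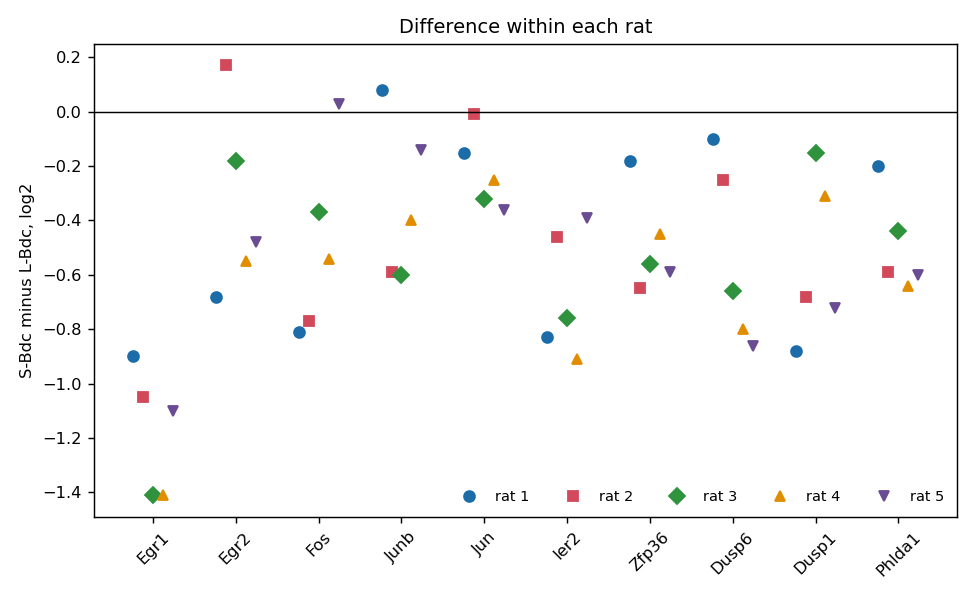
Log2 difference within each rat, S-Bdc minus L-Bdc (vertical axis), for the 10 immediate early genes (horizontal axis), with a symbol for each of 5 rats. Of the 50 points, 3 lie above 0, for Egr2 in rat 2, Fos in rat 5 and Junb in rat 1, and the order of the rats changes between genes.

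The spread between cultures of a site was also examined. In S-Bdc the median SD of the 10 genes was 0.221, where probes above background on all arrays had 0.127. In L-Bdc it was 0.171, where those probes had 0.118. The spread was wider in S-Bdc for 9 of the 10 genes and for 5108 (56.2%) of those 9092 probes. These are descriptions with no test.

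Other early transcription factor genes were divided. Of 15 such genes on the array 6 were lower in S-Bdc and 1 was higher, with a median difference of -0.08. Nr4a3, an orphan nuclear receptor, read 7.13 to 7.56 in S-Bdc, against 8.15 to 8.74 in L-Bdc (-0.99 ± 0.06, adjusted p = 2.64e-05). Myc, a driver of cell growth, read 8.80 to 8.96 in S-Bdc, against 9.59 to 9.99 in L-Bdc, and the zinc finger gene Klf6 read 9.07 to 9.39 in S-Bdc, against 9.63 to 10.08 in L-Bdc. Klf4, a Krüppel-like factor known from growth arrest, ran the other way at 9.70 to 10.17 in S-Bdc, against 8.66 to 8.80 in L-Bdc (1.14 ± 0.07, adjusted p = 2.64e-05). Of 4 other AP-1 subunits and partners 0 passed (0 at an unadjusted p of 0.05), with a median of -0.04, and Maff, a small Maf protein, differed by -0.14 ± 0.07. Of the 8 such genes listed, the Fos and Jun relatives Fosb, Fosl1, Fosl2 and Jund were not measured. Only 2 of the 4 measured were above background on all arrays.

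Among 23 other immediate early genes, those for secreted factors, enzymes and signalling proteins, 7 were lower and 1 was higher in S-Bdc, with a median of -0.03. Ptgs2, the inducible cyclooxygenase, read 8.83 to 9.81 in S-Bdc, against 10.19 to 11.46 in L-Bdc (-1.46 ± 0.14, adjusted p = 2.33e-04). Hbegf, a ligand of the EGF receptor, read 6.69 to 7.0 in S-Bdc, against 8.16 to 8.29 in L-Bdc. Errfi1, an inhibitor of that receptor, read 7.95 to 8.41 in S-Bdc, against 9.01 to 9.11 in L-Bdc, and the small GTPase gene Rhob read 8.63 to 8.96 in S-Bdc, against 9.07 to 9.36 in L-Bdc. The 7 lower calls became 4 without rat 3. The higher one, named after its values were seen, was the GTPase gene Gem (0.27 ± 0.07, adjusted p = 0.0404), whose call was lost without rat 3, rat 4 or rat 5.

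Upstream of these genes, the kinase cascade showed few differences. Of 15 genes of the Ras-ERK cascade 0 were lower and 1 was higher, Mknk1, a kinase activated by ERK (0.47 ± 0.06, adjusted p = 7.90e-04), and the median was 0.05, with 1 lower and 2 higher at an unadjusted p of 0.05. Of 10 genes for SRF, its partners and related factors, 2 were lower, with a median of -0.06. Srf itself read 8.71 to 8.92 in S-Bdc, against 8.94 to 9.31 in L-Bdc (-0.39 ± 0.07, adjusted p = 0.00611). Ets1 differed by -0.36 ± 0.08, and its call was lost without rat 3 (adjusted p = 0.0691) or rat 4 (adjusted p = 0.076). Of 14 receptors for serum factors 3 were higher and 2 were lower in S-Bdc, with a median of -0.07. The higher calls did not hold under other scalings, with 0 higher and 2 lower with median scaling, and 0 higher and 1 lower both with no normalisation between arrays and with processed intensities at a floor of 16. Lpar1, a receptor for lysophosphatidic acid, read 9.85 to 10.28 in S-Bdc, against 10.82 to 11.12 in L-Bdc, and F2r, the thrombin receptor, read 10.33 to 11.35 in S-Bdc, against 11.27 to 12.02 in L-Bdc. Pdgfra, a PDGF receptor, differed by 0.39 ± 0.08, a call lost without rat 3 (adjusted p = 0.0526), and the sphingosine phosphate receptor gene S1pr2 by 0.37 ± 0.09, a call lost without rat 2, rat 3 or rat 4. The third, named after its values were seen, was Lpar4, another lysophosphatidic acid receptor (0.29 ± 0.08, adjusted p = 0.0434), a call lost without any 1 of rats 1, 2, 4 or 5.

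Most of the other MAP kinase phosphatases and of the ERK feedback and output genes did not pass. Of 9 other MAP kinase phosphatases 0 passed in either direction (1 at an unadjusted p of 0.05), with a median of -0.01, and Dusp5, a nuclear ERK phosphatase, differed by -0.13 ± 0.05. Only 2 of these 9 were above background on all arrays, and Dusp4, Dusp14 and Dusp16 were above it on 0. Whether the dimness of these probes hid a difference was not tested. Dusp4, Dusp5 and Dusp7 are counted again in the next list. Of 12 ERK feedback and output genes 1 was lower, the Sprouty gene Spry1 (-0.40 ± 0.07, adjusted p = 0.00495), and 0 were higher, although 3 were higher and 2 lower without rat 1. At an unadjusted p of 0.05, 4 were lower and 3 higher. Phlda2 and Phlda3, the relatives of Phlda1, differed by 0.05 ± 0.06 and 0.12 ± 0.09 and did not pass. Of 11 messages known to be bound by Zfp36, only 5 were above background on all arrays. In S-Bdc 4 of the 11 were lower and 0 were higher (1 higher at an unadjusted p of 0.05), with a median of -0.06. Besides Ptgs2 these were the cytokine gene Il6, at 8.29 to 9.13 in S-Bdc, against 9.84 to 10.03 in L-Bdc (-1.16 ± 0.12, adjusted p = 3.11e-04), the chemokine gene Cxcl1 (-0.48 ± 0.09) and Il1b (-0.35 ± 0.07), whose call was lost without rat 3 (adjusted p = 0.0537) or rat 4 (adjusted p = 0.0606).

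**Figure D4:**
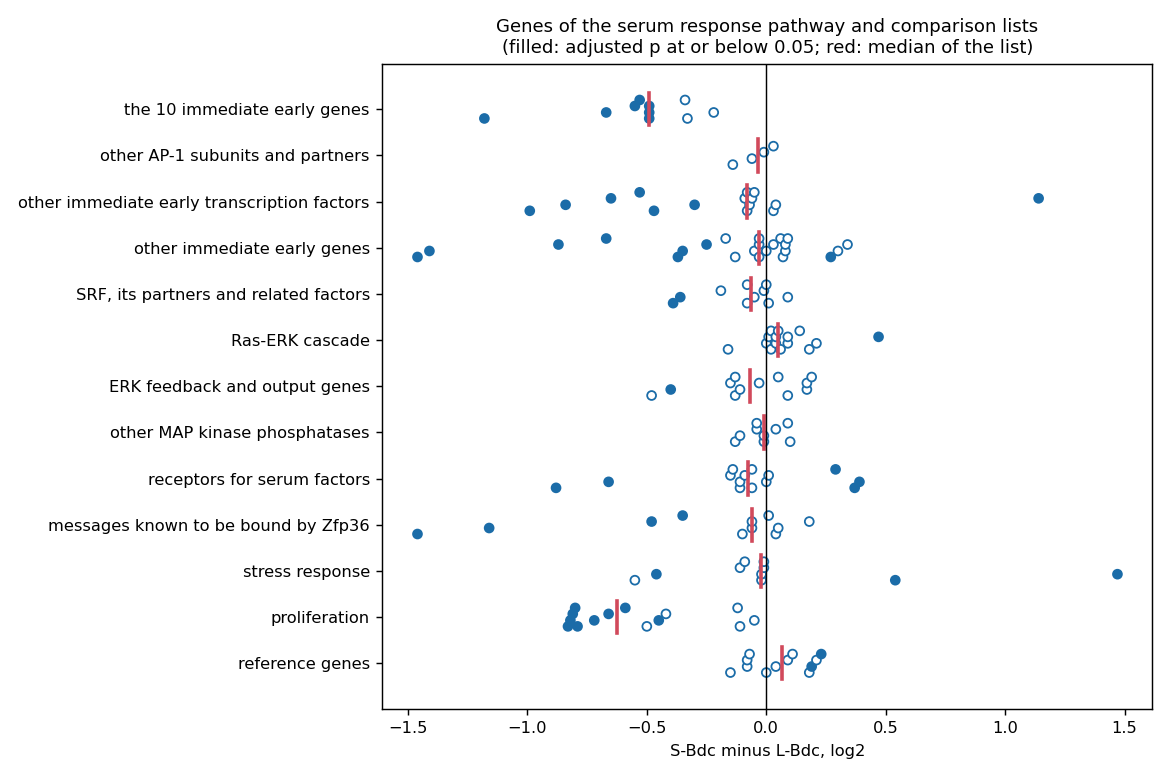
Log2 difference, S-Bdc minus L-Bdc (horizontal axis), of each measured gene of the 10 immediate early genes and of 12 further lists. Filled points passed an adjusted p of 0.05 and the red line is the median of the list, at -0.49 for the immediate early genes, -0.63 for proliferation genes and between -0.08 and 0.07 for the others shown.

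Proliferation genes were the one further list with a median far from 0. Of 14 such genes on the array 9 were lower in S-Bdc and 0 were higher (11 and 0 at an unadjusted p of 0.05), with a median of -0.63, among them Plk1, Cdc6, Mcm3 and Ccna2. The 9 lower calls became 6 with median scaling, 4 with no normalisation between arrays and 1 with processed intensities at a floor of 16. Their summed processed intensity was 5111 to 8376 units in S-Bdc, against 9657 to 11929 units in L-Bdc. By rat, their median difference was -0.31, -0.22, -0.66, -0.81 and -1.02 in rats 1 to 5. The median of the immediate early genes lay between -0.59 and -0.44, but single genes of that list differed in their order of rats. Dusp6 differed by -0.10, -0.25, -0.66, -0.80 and -0.86 in rats 1 to 5, and Dusp1 by -0.88, -0.68, -0.15, -0.31 and -0.72. The part of proliferation in the difference of the immediate early genes was not tested.

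Genes of stress, reference genes and cell type markers were examined beside them. Of 10 stress genes 2 were higher and 1 was lower in S-Bdc. Gadd45a, a growth arrest gene induced by DNA damage, read 9.77 to 10.14 in S-Bdc, against 8.42 to 8.71 in L-Bdc (1.47 ± 0.07, adjusted p = 1.26e-05), and the heat shock gene Hspb1 was lower (-0.46 ± 0.06, adjusted p = 0.00138). The call of Ddit3, a gene of the endoplasmic reticulum stress response (0.54 ± 0.15, adjusted p = 0.0495), was lost without any 1 of rats 2, 3, 4 or 5. The 12 reference genes had a median of 0.07, with 2 just past the threshold, Sdha (0.19 ± 0.05, adjusted p = 0.049) and Gusb (0.23 ± 0.06, adjusted p = 0.0354), both lost without any 1 of the 5 rats.

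The labelled osteoblasts expressed 7 of 9 measured osteoblast markers above background on all arrays, with Col1a1 higher (0.58 ± 0.06) and Spp1 lower (-1.81 ± 0.12) in S-Bdc. Bglap, which encodes osteocalcin of the mature osteoblast, was above background on 3 of 5 S-Bdc and 1 of 5 L-Bdc arrays, and Sp7 on 2 S-Bdc and 1 L-Bdc. Of the leukocyte markers Ptprc and Aif1 were above background on 0 arrays, while Cd14 was above it on all. Summed leukocyte markers were 293 to 403 units in S-Bdc, against 306 to 566 units in L-Bdc. Endothelial markers summed to 0 to 10 units in S-Bdc, against 0 to 6 units in L-Bdc, and skeletal muscle markers to 18 to 37 units in S-Bdc, against 39 to 84 units in L-Bdc, with 0 of 5 called (1 at an unadjusted p of 0.05). Osteoclast markers summed to 1474 to 2306 units in S-Bdc, against 1805 to 2277 units in L-Bdc. Most of this sum was Ctsk (mean log2 signal 10.83 in S-Bdc and 10.98 in L-Bdc), while Calcr was above background on 0 arrays. Neuronal markers summed to 53 to 67 units in S-Bdc, against 58 to 109 units in L-Bdc. In these lists Mmp9 (-0.20 ± 0.05, adjusted p = 0.0493) and Tubb3 (-0.27 ± 0.07, adjusted p = 0.044) passed as lower, and both calls were lost without any 1 of rats 2, 3, 4 or 5. Adipocyte markers summed to 129 to 342 units in S-Bdc, against 66 to 268 units in L-Bdc. Of these Cfd, which encodes adipsin (0.70 ± 0.21, adjusted p = 0.0761, limma), and Fabp4 were above background on all arrays, whereas Adipoq and Lep were above it on 0. The osteocyte markers Sost and Phex were also above background on 0 arrays. The part of other cell types in the results was not tested.

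The genes whose profile over the 10 cultures was most like that of Egr1 were sought among 13326 other genes, after each profile was centred on its own mean. The nearest by root mean square distance was Nr4a3, at 0.201 log2 units. It was followed by Ncl, which encodes the nucleolar protein nucleolin (0.219), Dlk1, a Notch-like transmembrane protein (0.249), and Fen1, a nuclease of DNA replication (0.253). Of the other 9 immediate early genes Ier2 was nearest, at 0.316, with 40 genes nearer to Egr1, and Jun was farthest, at 0.506. Profiles were centred but not scaled, so genes whose site difference is close in size to that of Egr1 tend to lie nearer. The measure is a description over 10 cultures of 5 rats and has no test.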

How the data were processed

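Bone-derived cells of 5 rats were measured on 10 arrays. In the raw table deposited by the authors, values are the mean bead intensity per probe, exported from BeadStudio without background subtraction or normalisation. In their value table they are processed intensities, 24.1% of them at or below 0. How these were processed is not given in the sources used here. Rows of the 2 tables were matched by the order of values across arrays for 22517 probes, and symbols came from the platform annotation.

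Raw signals were background-corrected (normexp, offset 50), quantile normalised and fitted with rat and site in limma 3.58.1 (R 4.3.3, lmFit and eBayes). Benjamini-Hochberg adjustment ran over all probes, with 0.05 as the threshold. A probe counted as above background where its processed intensity exceeded 8.51 units, the 95th percentile of the sizes of values at or below 0. The pipeline was tested on simulated data. The study's BeadStudio difference score was not computed, and 0 columns of per-sample values were left unused.

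The labels name the same animal for both cultures of a number, which is the source of the pairing. The correlation of the 2 cultures of a rat, after subtracting the mean of each site, was, for rats 1 to 5, 0.0597, 0.211, 0.25, 0.176 and 0.129.

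The genes and lists were chosen with earlier results of these data known. All 10 immediate early genes were named, with up to 4 called genes of lowest adjusted p in each list (otherwise up to 2) and the 5 genes nearest to Egr1, of which 1 is not reported here. Other genes named after their values were seen are marked as such. Alternatives covered the background correction, normalisation, filter, processed intensities, variance model, replicate block and each rat left out. They were applied to the other named genes and lists after the data had been seen.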

Additional observations from a re-analysis of the deposited data

Results flagged for a closer look

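In the 20 groups formed by the 10 immediate early genes and the 2 sites, 2 cultures stood apart from the other 4 of their site by Dixon's ratio, and chance gives about 1 in 20 groups. Zfp36 in S-Bdc of rat 1 read 8.38, against 8.04 to 8.13 in the other S-Bdc cultures (ratio 0.718). Phlda1 in S-Bdc of rat 2 read 5.96, against 6.28 to 6.40 in the others (ratio 0.728), and this was the array on which its probe did not rise above background.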

How the results depend on the processing

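All 10 immediate early genes kept a negative difference under the 14 alternatives, and of their 140 values 114 stayed on the same side of the threshold, 18 lost the call and 8 gained it. In place of 7 genes, 4 were lower with median scaling (Egr1, Fos, Ier2 and Phlda1), 3 with no normalisation between arrays (Egr1, Ier2 and Phlda1) and 1 with processed intensities at a floor of 16 (Egr1). Over the array 1268 probes were called with median scaling (709 higher and 559 lower), 870 with no normalisation (513 higher and 357 lower) and 209 with the floor (125 higher and 84 lower), in place of 2050 (997 higher and 1053 lower). The cause was not tested. The median difference of the 10 genes, -0.49, was -0.56 with a normexp offset of 16, -0.61 with the floor and -0.43 with raw signal plus 50. Leaving out 1 rat gave 1324 (without rat 3) to 2224 probes and 5 to 8 of the 10 genes. Without the replicate block that pairs cultures by rat, 7 genes were lower and 1915 probes were called, while Cxcl1, Pdgfra, Ddit3, Gem and Gusb lost their calls. Averaging all probes of a gene gave the same values, since each gene had 1 probe. Of 574 values of 41 other named genes, 106 lost the call and 0 turned direction. With median scaling, no normalisation and the floor, in this order, the lower calls were 5, 4 and 2 of the other early transcription factors (6 in the paired fit) and 5, 4 and 1 of the other immediate early genes (7 in the paired fit). The number of arrays and the dimness of the Fos, Jun and Phlda1 probes limit the precision.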
